A study of Mus musculus with 18 samples.

Results

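The 7 genes described here encode receptors through which macrophages can receive signals from nerves: the calcitonin gene-related peptide (CGRP) receptor subunits and their partners *Calcrl*, *Ramp1*, *Ramp2* and *Ramp3*, the adrenergic receptor *Adra2a*, the substance P receptor *Tacr1* and the vasoactive intestinal peptide receptor *Vipr1*. They were taken by symbol from 24421 gene symbols in the count files. Macrophages of the synovium, the membrane that lines joints, were sorted from wild-type C57BL/6 mice as LYVE1+CX3CR1+, MHCII+CD11c- or MHCII+CD11c+ cells, and bulk RNA-seq was run on every subset. Each subset was taken from untreated mice and from mice killed 8 h after an intravenous injection of immune complexes (IC, ovalbumin bound by rabbit antibody), with 3 libraries in each of the 6 groups and 18 libraries in all. Each library pooled the cells of the legs of several mice, so that a library stands for a pool and not for a mouse, and all groups shared the genotype, the collagenase digestion and the total RNA kit for low input. All p-values therefore measure the spread between these pools.

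CGRP is released by pain-sensing nerve fibres. Its receptor is a pair of proteins, in which CALCRL (calcitonin receptor-like receptor) binds the peptide together with RAMP1 (receptor activity-modifying protein 1), whereas CALCRL paired with RAMP2 or RAMP3 responds mainly to adrenomedullin, a peptide known for its actions on vessels. The CGRP receptor couples to the G protein Gs and raises cyclic AMP in the cell, as does VPAC1, the product of *Vipr1*, whereas the α2A-adrenergic receptor encoded by *Adra2a* couples to Gi and lowers it.

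The libraries held 245903 to 2172358 counts, with a median of 1526180, and the MHCII+CD11c- libraries after IC were the shallowest group, at 381217, 245903 and 973951 counts. The floor was set at 3 counts, which corresponded to between 1.43 and 11.3 CPM (counts scaled to library size with edgeR's TMM factors) depending on the library. *Lyve1* and *Cx3cr1* were highest and *H2-Ab1* and *Itgax*, the gene of CD11c, lowest in LYVE1+CX3CR1+ macrophages. *Itgax* averaged 268 CPM in untreated MHCII+CD11c+ and 5.99 CPM in untreated MHCII+CD11c- macrophages. After IC it averaged 336 CPM in MHCII+CD11c+ and 45.0 CPM in MHCII+CD11c- macrophages. All 8 macrophage markers examined, among them *Adgre1* and *Csf1r*, had counts in all 18 libraries. Of the 7 receptor genes, *Ramp1*, *Calcrl*, *Adra2a* and *Vipr1* passed the filter on low counts, which kept 10550 genes, and were tested in edgeR (quasi-likelihood), with p-values adjusted over those genes by Benjamini-Hochberg and a threshold of 0.05. The comparisons of both MHCII+ subsets with LYVE1+CX3CR1+ macrophages share the LYVE1+CX3CR1+ libraries. *Ramp2*, *Ramp3* and *Tacr1* did not pass the filter and are described by their counts. In bulk RNA, fewer cells that express a gene and less RNA of it per cell cannot be told apart.

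The genes lie on chromosomes 1 (*Ramp1*, GRCm38, from 91179822 to 91225196), 2 (*Calcrl*, from 84330626 to 84425411), 11 (*Ramp2*, from 101246028 to 101259546, and *Ramp3*, from 6658521 to 6677475), 19 (*Adra2a*, from 54044151 to 54048982), 6 (*Tacr1*, from 82402334 to 82560104) and 9 (*Vipr1*, from 121642716 to 121672954) in GENCODE M21. All 7 are protein-coding, and *Adra2a* has a single exon. Exons of *Ramp2* overlap those of *Vps25* on the same strand, and exons of *Ramp3* overlap *Gm11978* on the opposite strand, so that the counts of *Ramp2* and *Ramp3* are uncertain where reads fall on the shared bases. The 250 bases before the RefSeq start (GRCm38.p6) are shown for *Ramp1* (chr1:91179572-91179821, plus strand), the gene with the largest log2 fold change between subsets among the 4 tested genes, and for *Vipr1* (chr9:121642466-121642715, plus strand), which passed the threshold in no comparison. Capitals mark a match of TGACG, a core of the cyclic AMP response element, here on the minus strand.
*Ramp1*: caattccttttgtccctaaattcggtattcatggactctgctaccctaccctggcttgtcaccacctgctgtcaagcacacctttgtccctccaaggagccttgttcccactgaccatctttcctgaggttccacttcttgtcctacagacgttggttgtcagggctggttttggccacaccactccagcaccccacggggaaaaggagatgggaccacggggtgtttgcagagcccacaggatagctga
*Vipr1*: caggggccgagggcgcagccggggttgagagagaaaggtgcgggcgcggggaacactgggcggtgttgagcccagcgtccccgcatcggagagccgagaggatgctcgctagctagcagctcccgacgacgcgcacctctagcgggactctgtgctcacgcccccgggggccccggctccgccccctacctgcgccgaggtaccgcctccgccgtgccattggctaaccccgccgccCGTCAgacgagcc
Both strands were searched for TGACG, for GAGGAA (a core bound by the macrophage factor PU.1) and for TGANTCA (AP-1), of which TGACG and TGANTCA share their first letters. Of the 6 receptor genes matched in the RefSeq table used here, *Vipr1*, *Adra2a* and *Tacr1* held TGACG once, a motif present in 17.8% of 32851 RefSeq windows of the same length. *Ramp3* held GAGGAA once (23.3% of windows), none of the 6 held TGANTCA (6.75% of windows), and *Ramp1* and *Calcrl* held none of the 3 motifs. A window without these letters says nothing about the factors.

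*Ramp1*, the subunit that makes CALCRL a CGRP receptor, was highest in MHCII+CD11c+ macrophages and close to the floor in LYVE1+CX3CR1+ macrophages. Untreated MHCII+CD11c+ libraries had 141, 85 and 158 *Ramp1* counts, untreated MHCII+CD11c- libraries 32, 19 and 17, and untreated LYVE1+CX3CR1+ libraries 3, 7 and 2. In CPM these were 68.4 ± 11.1 (SD, n = 3), 25.8 ± 10.2 and 2.48 ± 1.70, and no library of one subset overlapped another subset. After IC the counts were 20, 35 and 33 in MHCII+CD11c+, 0, 6 and 8 in MHCII+CD11c-, and 0, 6 and 5 in LYVE1+CX3CR1+ macrophages. The MHCII+CD11c+ libraries again stood above all LYVE1+CX3CR1+ libraries, whereas MHCII+CD11c- libraries overlapped both other subsets.

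**Figure D1:**
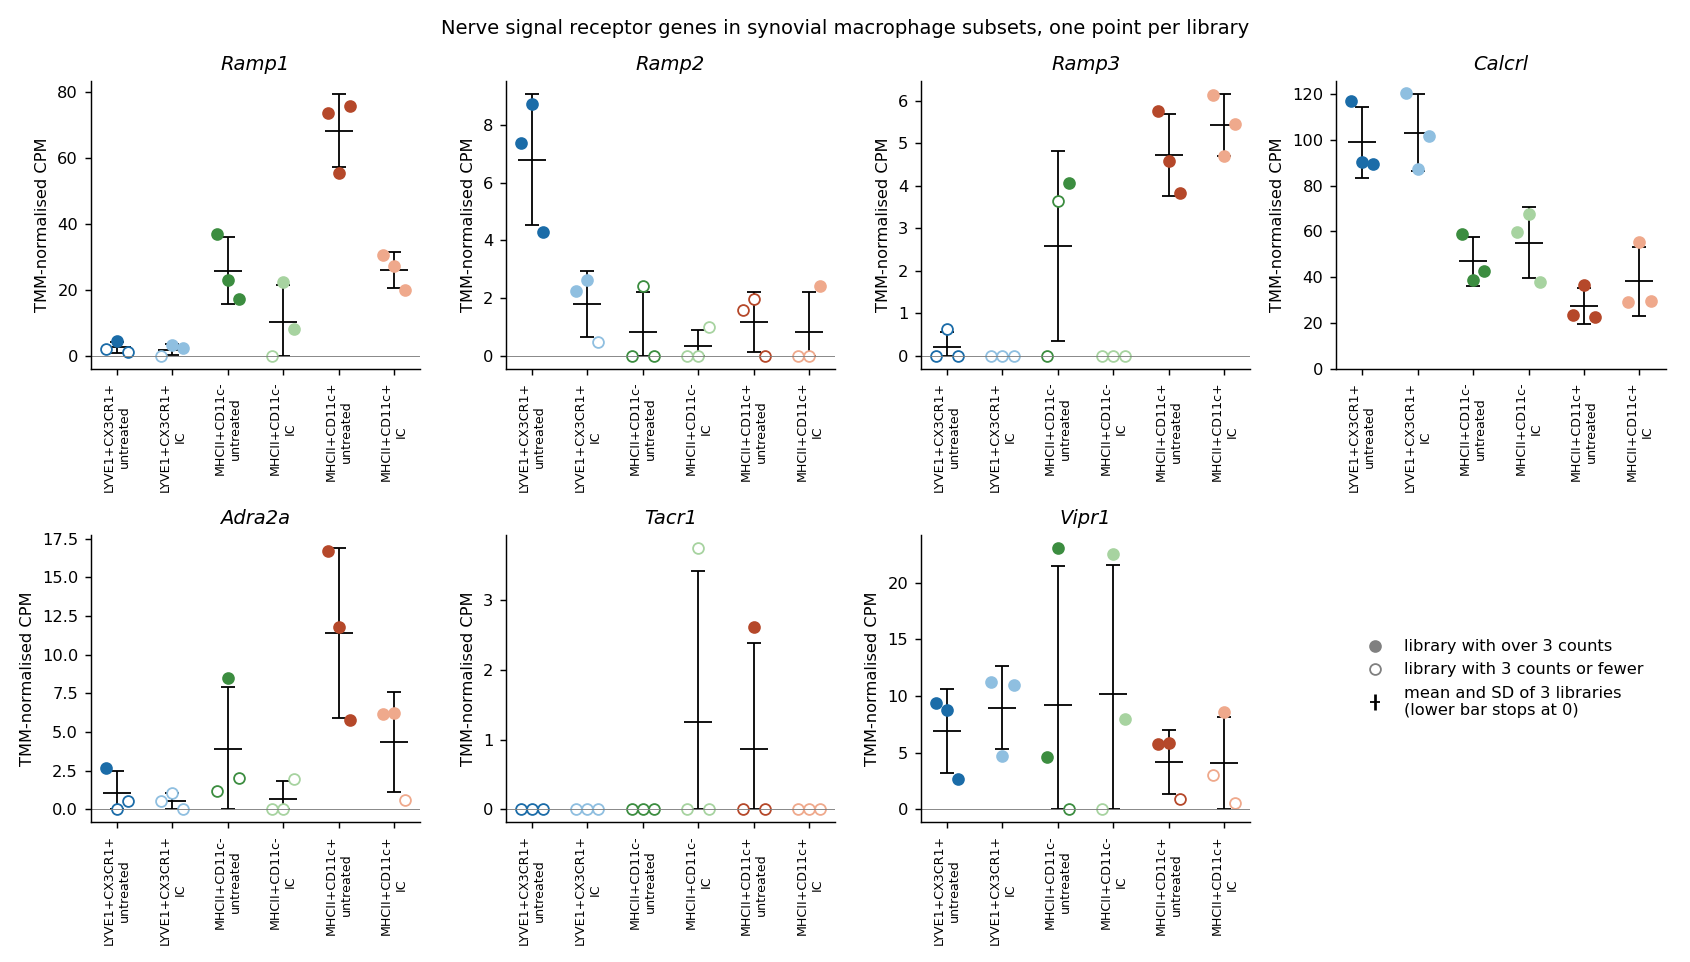
TMM-normalised CPM (vertical axes, linear) of the 7 receptor genes in the 18 libraries, grouped along the horizontal axes by subset and treatment; points are libraries, open points have 3 counts or fewer, and black marks give the mean and SD of 3 libraries with the lower bar stopped at 0. *Ramp1* was highest in untreated MHCII+CD11c+ macrophages (68.4 CPM) and *Calcrl* in LYVE1+CX3CR1+ macrophages (98.9 CPM untreated), and *Tacr1* exceeded 3 counts in 1 library.

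In untreated mice, *Ramp1* was higher in MHCII+CD11c+ than in LYVE1+CX3CR1+ macrophages by 4.76 on the log2 scale (SE 0.58, adjusted p = 5.99e-07, edgeR), and 3 of the 4 tested receptor genes were called in this comparison, against 21.8% of all genes tested. In MHCII+CD11c- over LYVE1+CX3CR1+ macrophages the *Ramp1* value was 3.35 (SE 0.61, adjusted p = 0.000501), with 2 of 4 receptor genes called against 11.5% of all genes. Both calls held under each of 12 alternatives. After IC, MHCII+CD11c+ over LYVE1+CX3CR1+ macrophages gave 3.69 (SE 0.61, adjusted p = 6.20e-05) with 2 of 4 genes called against 19.7% of all genes, again under each of 12 alternatives.

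MHCII+CD11c- over LYVE1+CX3CR1+ macrophages after IC gave a *Ramp1* log2 fold change of 2.15 (SE 0.80) with an adjusted p of 0.0909, and 1 of 4 genes, *Calcrl*, was called against 9.79% of all genes. This *Ramp1* value passed the threshold without the MHCII+CD11c- library that had 0 *Ramp1* counts among 381217 (2.63, adjusted p = 0.0312), with no filter on low counts (adjusted p = 0.0362) and with the DESeq2 Wald test (adjusted p = 0.0241), and missed it with both shallowest libraries left out (2.03, adjusted p = 0.201). Depth moved with the group here, since 3 counts in the shallowest library correspond to more CPM than *Ramp1* had in any LYVE1+CX3CR1+ library.

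Between the MHCII+ subsets, no receptor gene was called in untreated mice (0 of 4, against 3.49% of all genes, with 2 of 4 at an unadjusted p under 0.05 and 1 called by DESeq2) or after IC (0 of 4, against 2.85% of all genes, with 1 of 4 at an unadjusted p under 0.05 and 0 called by DESeq2). The *Ramp1* log2 fold change of MHCII+CD11c+ over MHCII+CD11c- macrophages in untreated mice was 1.41 (SE 0.46, adjusted p = 0.0924) and after IC it was 1.54 (SE 0.63, adjusted p = 0.222). The untreated value passed the threshold with the DESeq2 Wald test (adjusted p = 0.0466), with no filter (adjusted p = 0.0132) and with only these 6 libraries in the fit (adjusted p = 0.0146). Averaged over both treatments, a comparison added after these counts had been seen, the value was 1.47 (SE 0.39, adjusted p = 0.0157), with 1 of 4 genes called against 8.58% of all genes. Without the third MHCII+CD11c- library after IC the averaged value was 1.41 with an adjusted p of 0.0572.

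After IC, *Ramp1* levels in all 3 MHCII+CD11c+ libraries were below those of every untreated one, at 26.0 ± 5.48 against 68.4 ± 11.1 CPM. The log2 fold change of -1.42 (SE 0.45) had an unadjusted p of 0.00428 and an adjusted p of 0.191 in edgeR's test, in which 0 of 4 genes were called against 0.673% of all genes, with 1 of 4 at an unadjusted p under 0.05 and 0 called by DESeq2. It passed the threshold with no filter (adjusted p = 0.0254) and with only these 6 libraries in the fit (adjusted p = 0.00907). In these macrophages *Lyve1* rose with IC from 376 to 1090 CPM (adjusted p = 0.0087, edgeR) and *Cx3cr1* from 65.8 to 117 CPM (adjusted p = 0.0467). *H2-Ab1* and *Itgax* were not called. In MHCII+CD11c- macrophages *Ramp1* was at 10.2 ± 11.4 CPM after IC and 25.8 ± 10.2 without it, and the libraries overlapped (log2 fold change -1.55, SE 0.63, adjusted p = 0.238). There, 0 of 4 genes were called against 1.06% of all genes, with 1 of 4 at an unadjusted p under 0.05 and 0 called by DESeq2. In this subset *Itgax* rose with IC from 5.99 to 45.0 CPM (adjusted p = 0.0260, edgeR). *H2-Ab1* fell from 4603 to 2882 CPM (adjusted p = 0.0365), and *Lyve1* and *Cx3cr1* were not called. The part of a changed make-up of the MHCII+ subsets in the *Ramp1* values was not tested. In LYVE1+CX3CR1+ macrophages the *Ramp1* log2 fold change was -0.35 (SE 0.79, adjusted p = 0.971), and 0 of 4 genes were called against 0.464% of all genes, with 0 of 4 at an unadjusted p under 0.05 and 0 called by DESeq2. The sign of the *Ramp1* value turned without LYVE1+CX3CR1+ untreated library 2 (0.32) or LYVE1+CX3CR1+ IC library 1 (0.17).

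Averaged over both MHCII+ subsets, which was added after the counts had been seen, *Ramp1* fell by 1.48 on the log2 scale after IC (SE 0.39, adjusted p = 0.0268, edgeR), with 1 of 4 genes called against 4.09% of all genes. This call was lost in 7 of the 12 fits that left out 1 library, namely MHCII+CD11c- untreated 1, MHCII+CD11c+ untreated 1 and 3, MHCII+CD11c- IC 1 and 3 and MHCII+CD11c+ IC 2 and 3, with log2 fold changes of -1.51 to -1.25 and adjusted p of 0.0504 to 0.0753. No difference in the response of *Ramp1* to IC between subsets was detected. The response in MHCII+CD11c- minus that in LYVE1+CX3CR1+ macrophages was -1.19 (SE 1.06, adjusted p = 0.865), that in MHCII+CD11c+ minus LYVE1+CX3CR1+ macrophages -1.07 (SE 0.95, adjusted p = 0.9999), and that in MHCII+CD11c+ minus MHCII+CD11c- macrophages 0.13 (SE 0.76, adjusted p = 0.984). In each of these 3 comparisons edgeR called 0 of 4 receptor genes, against 0, 0.00948 and 0.00948% of all genes. In its test 0 of 4 had an unadjusted p under 0.05. DESeq2 also called 0 of 4, but in the first 2 comparisons it gave an adjusted p to only 3683 and 2291 genes. A gene without an adjusted p stands here as not called. The 95% interval of the last difference ran from -1.35 to 1.61 on the log2 scale.

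Markers of dendritic cells, taken as a sum, were higher in both MHCII+ subsets than in LYVE1+CX3CR1+ macrophages, as *Ramp1* was in untreated mice. All 6 of them (*Flt3*, *Zbtb46*, *Xcr1*, *Clec9a*, *Ccr7* and *Siglech*) had counts in untreated MHCII+ libraries, where their summed level ran from 63.7 to 80.2 CPM in MHCII+CD11c- and from 68.0 to 163 CPM in MHCII+CD11c+ macrophages, against 5.89 to 8.73 CPM in untreated LYVE1+CX3CR1+ macrophages, in which *Flt3* and *Ccr7* were at 0. After IC the sums were 44.2 to 70.8 CPM with *Xcr1* and *Clec9a* at 0, 94.6 to 139 CPM with *Clec9a* at 0, and 2.10 to 3.93 CPM with *Xcr1*, *Clec9a* and *Ccr7* at 0, in the same order. *Flt3*, a receptor that defines conventional dendritic cells, averaged 45.7 CPM in untreated MHCII+CD11c+ macrophages and 20.0 CPM after IC, whereas *Ccr7*, a marker of migrating dendritic cells, averaged 33.1 and 68.0 CPM. Between the untreated MHCII+ subsets the sums overlapped, and 1 of 4 tested markers, *Flt3*, was called higher in MHCII+CD11c+ macrophages (against 3.49% of all genes). *Ccr7* (39.7 against 33.1 CPM) and *Siglech* (16.4 against 8.39 CPM) averaged more in untreated MHCII+CD11c- than in MHCII+CD11c+ macrophages, unlike *Ramp1*. *Flt3*, *Zbtb46* (7.37 against 20.8 CPM), *Xcr1* and *Clec9a* averaged less there, like *Ramp1*. After IC the sums of the MHCII+ subsets did not overlap. Of the 4 tested markers 2 were then called higher in MHCII+CD11c+ macrophages and 0 lower (against 2.85% of all genes, edgeR). These were *Flt3* (3.96, SE 0.93, adjusted p = 0.0179) and *Zbtb46* (4.46, SE 1.11, adjusted p = 0.0260). For IC against untreated MHCII+CD11c+ macrophages, edgeR called 0 of the 4 tested dendritic markers, with 2 at an unadjusted p under 0.05 and 0 called by DESeq2. The 5 mast cell markers summed to 6.27 to 81.8 CPM in untreated MHCII+CD11c+ libraries and 44.5 to 265 CPM after IC, and to 6.08 to 212.5 and 115 to 477 CPM in MHCII+CD11c- libraries. The part of these cells in the *Ramp1* differences was not tested.

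**Figure D2:**
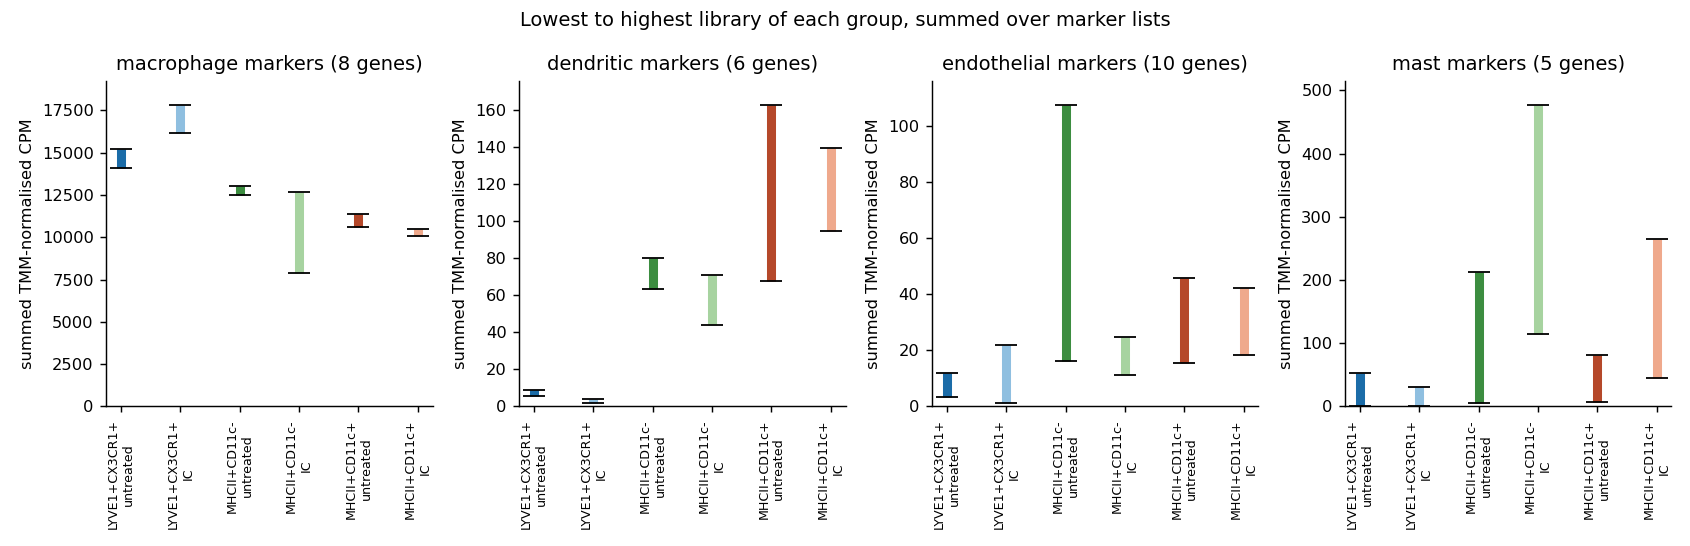
Summed TMM-normalised CPM (vertical axes, linear, each from 0) of 4 marker lists; each bar runs from the lowest to the highest of the 3 libraries of a group. The dendritic cell markers sat at 2.10 to 8.73 CPM in LYVE1+CX3CR1+ macrophages and at 44.2 to 163 CPM in the MHCII+ subsets. The endothelial markers ran from 1.12 to 21.98 CPM in LYVE1+CX3CR1+ and from 11.3 to 108 CPM in MHCII+ libraries.

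*Calcrl*, the shared subunit of the CGRP and adrenomedullin receptors, ran the other way and was the only one of the 7 genes with more than 3 counts in all 18 libraries. Untreated LYVE1+CX3CR1+ libraries had 174, 145 and 167 *Calcrl* counts, MHCII+CD11c- libraries 51, 32 and 42, and MHCII+CD11c+ libraries 45, 56 and 47. The levels were 98.9 ± 15.5, 46.9 ± 10.7 and 27.6 ± 7.86 CPM, and the 3 subsets did not overlap. After IC the counts were 215, 166 and 213 in LYVE1+CX3CR1+, 23, 18 and 38 in MHCII+CD11c-, and 19, 71 and 49 in MHCII+CD11c+ macrophages. All LYVE1+CX3CR1+ libraries were again the highest in CPM, and the MHCII+ subsets overlapped each other.

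*Calcrl* was lower in MHCII+CD11c+ than in LYVE1+CX3CR1+ macrophages in untreated mice (log2 fold change -1.85, SE 0.28, adjusted p = 1.28e-05, edgeR) and after IC (-1.41, SE 0.28, adjusted p = 0.000445), under each of 12 alternatives in both cases. It was also lower in MHCII+CD11c- than in LYVE1+CX3CR1+ macrophages, by -1.07 (SE 0.28, adjusted p = 0.0103) in untreated mice and -0.99 (SE 0.30, adjusted p = 0.0337) after IC. These 2 calls were less stable. The untreated one was lost without LYVE1+CX3CR1+ library 1 (adjusted p = 0.0623) or MHCII+CD11c- library 2 (adjusted p = 0.0536), and the one after IC without LYVE1+CX3CR1+ IC library 1 (adjusted p = 0.129) or 3 (adjusted p = 0.0687), without MHCII+CD11c- IC library 3 (-0.70, adjusted p = 0.195) and with only these 6 libraries in the fit (adjusted p = 0.0602). With both shallowest libraries left out, the difference after IC was -1.44 (adjusted p = 0.0322).

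The 2 MHCII+ subsets did not pass the threshold for *Calcrl*, at -0.78 (SE 0.29, adjusted p = 0.168) for MHCII+CD11c+ against MHCII+CD11c- macrophages in untreated mice and -0.42 (SE 0.32, adjusted p = 0.570) after IC. No change of *Calcrl* with IC was detected. Its log2 fold changes were 0.06 (SE 0.25, 95% interval -0.44 to 0.56) in LYVE1+CX3CR1+, 0.14 (SE 0.32, interval -0.48 to 0.77) in MHCII+CD11c- and 0.50 (SE 0.29, interval -0.07 to 1.07) in MHCII+CD11c+ macrophages, with adjusted p of 0.988, 0.885 and 0.652 in edgeR's test. The first 2 values are near 0 and turned sign under several alternatives.

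Endothelial cells are known to express *Calcrl* and *Ramp2*. The 10 endothelial markers summed to 3.22 to 11.9 CPM in untreated LYVE1+CX3CR1+ libraries, with *Emcn* and *Cldn5* at 0, and to 1.12 to 21.98 CPM after IC, with *Tie1*, *Tek* and *Erg* at 0. In MHCII+ libraries they summed to between 11.3 and 108 CPM, so that the ranges overlapped. Of the 3 endothelial markers tested, *Pecam1* was higher in both MHCII+ subsets than in LYVE1+CX3CR1+ macrophages under either treatment and the other 2 were not called, and *Cdh5* averaged 3.66 CPM in LYVE1+CX3CR1+ macrophages of untreated mice, 17.7 CPM in the CD11c- and 1.80 CPM in the CD11c+ subset of MHCII+ macrophages. The 6 mural cell markers summed to 396 to 653 CPM in LYVE1+CX3CR1+ and to 31.2 to 310 CPM in MHCII+ libraries, nearly all of it *Cspg4* (451 CPM in untreated LYVE1+CX3CR1+ macrophages), whereas the pericyte marker *Rgs5* was at 0 there and *Pdgfrb* at 1.88 CPM. The 6 Schwann cell markers summed to 605 to 846 CPM in LYVE1+CX3CR1+ and 206 to 581 CPM in MHCII+ libraries, mostly *Pmp22* (538 CPM in untreated LYVE1+CX3CR1+ macrophages), with *Sox10* at 0.416 CPM. Within this list the genes differed in direction, since *Pmp22* and *S100b* were lower and *Mbp* was higher in MHCII+CD11c+ than in LYVE1+CX3CR1+ macrophages after IC (*Mbp* 78.8 against 22.3 CPM, log2 fold change 1.82, adjusted p = 0.000121). The 8 macrophage markers were also highest in LYVE1+CX3CR1+ libraries, at 14080 to 17810 CPM against 7899 to 13020 CPM in MHCII+ libraries. The 8 fibroblast markers summed to 30.0 to 642 CPM in untreated LYVE1+CX3CR1+ libraries, 16.3 to 125 CPM after IC and 7.81 to 161 CPM in MHCII+ libraries. *Prg4* averaged 204 CPM in untreated LYVE1+CX3CR1+ macrophages with an SD of 342, and its highest library held 599 CPM. The part of these cells in the *Calcrl* differences was not tested.

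**Figure D3:**
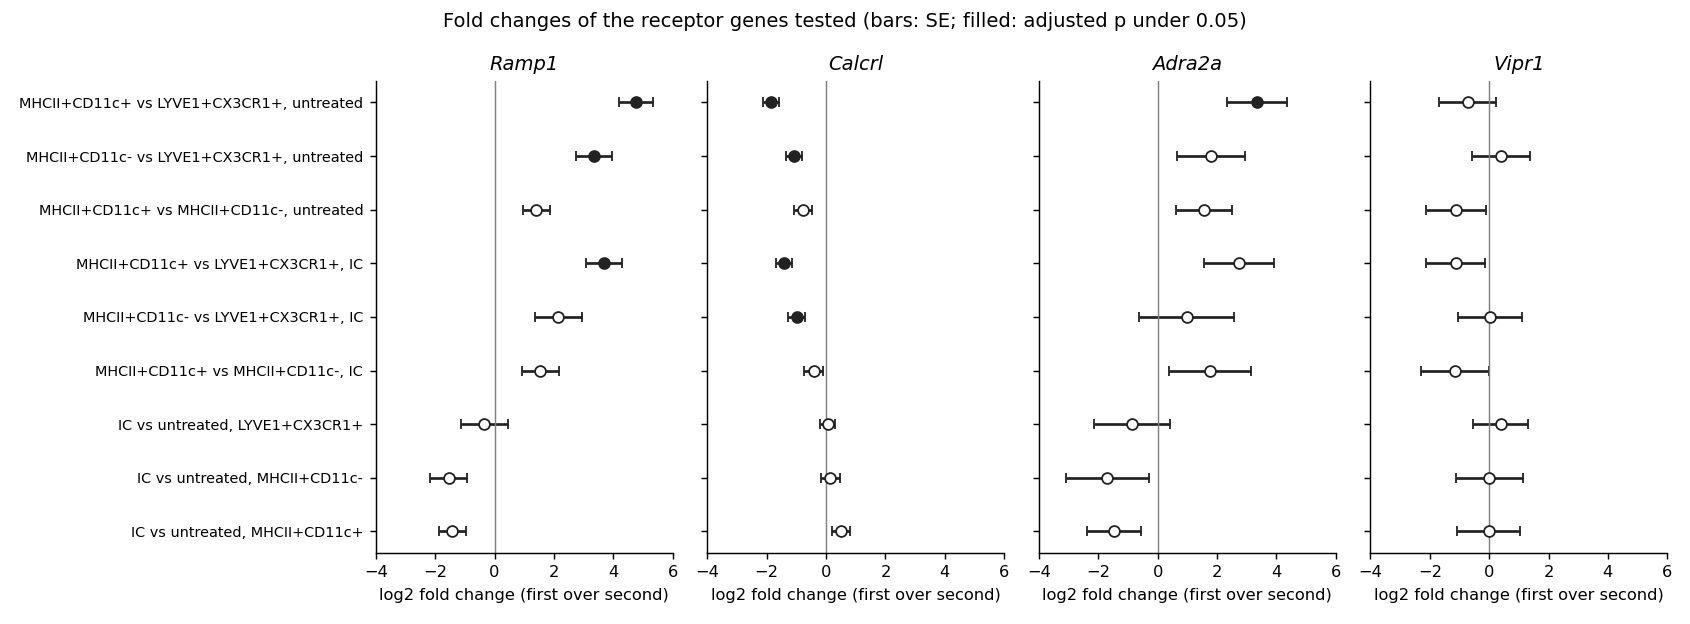
Log2 fold changes (horizontal axes) of the 4 receptor genes tested, with SE bars, in the 6 subset comparisons and the 3 comparisons of IC with untreated mice; filled points have an adjusted p under 0.05 in edgeR's test. *Ramp1* and *Calcrl* lie on opposite sides of 0 in every comparison of an MHCII+ subset with LYVE1+CX3CR1+ macrophages, from 2.15 to 4.76 and from -1.85 to -0.99, and the 1 filled point of *Adra2a* is at 3.35.

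Because the CGRP receptor needs both subunits, their counts were set against each other within each library, so that no scaling between libraries was needed. In untreated MHCII+CD11c+ libraries there were 152 to 336 *Ramp1* counts per 100 *Calcrl* counts, in untreated MHCII+CD11c- libraries 40.5 to 62.8 and in untreated LYVE1+CX3CR1+ libraries 1.198 to 4.83. After IC the ranges were 49.3 to 105, 0 to 33.3 and 0 to 3.61. Within each treatment, no MHCII+CD11c+ library overlapped a library of another subset. Across both treatments the mean log2 ratio (with 0.5 added to each count) was higher in MHCII+CD11c+ than in LYVE1+CX3CR1+ macrophages by 6.19 and than in MHCII+CD11c- macrophages by 2.40, each with an exact two-sided permutation p of 0.005 (n = 6 and 6), the smallest that 400 arrangements within treatments allow, and 0.0075 after adjustment over the 3 pairs. It was higher in MHCII+CD11c- than in LYVE1+CX3CR1+ macrophages by 3.79 (exact permutation p = 0.015, adjusted p = 0.015, n = 6 and 6). With 0 *Ramp1* counts, the added 0.5 makes the value depend on the library's depth. With both shallowest libraries left out, 1 of which had 0 *Ramp1* counts, the difference between the MHCII+ subsets was 1.63 with an adjusted p of 0.05.

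**Figure D4:**
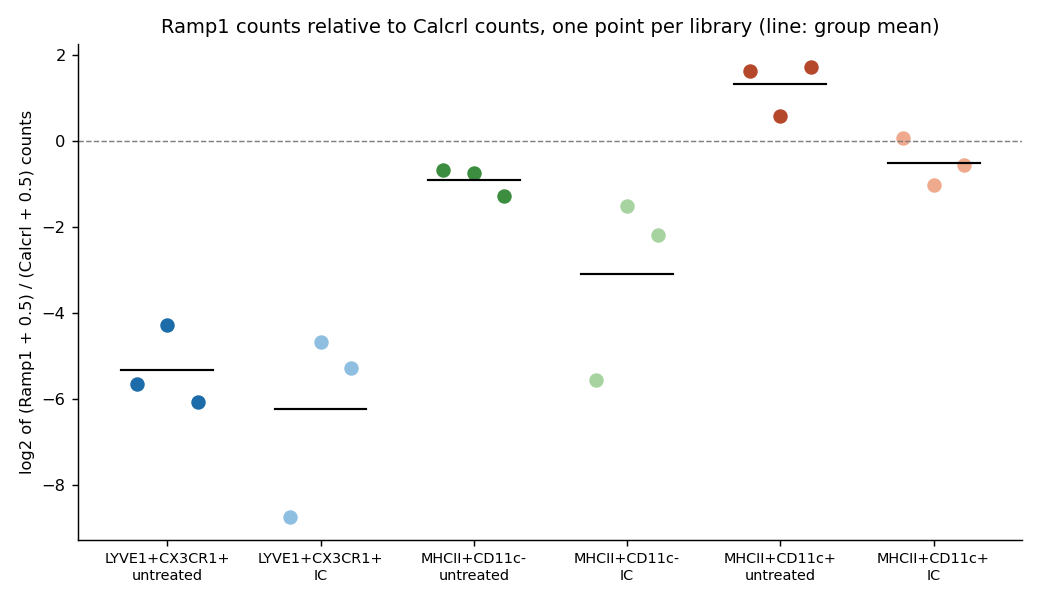
Log2 ratio of *Ramp1* to *Calcrl* counts, with 0.5 added to each (vertical axis), in the 18 libraries by group; points are libraries, black lines group means, and the dashed line marks equal counts. The 3 untreated MHCII+CD11c+ libraries and 1 of the 3 after IC lie above the line and all LYVE1+CX3CR1+ libraries lie below, and the lowest point of each of the LYVE1+CX3CR1+ IC and MHCII+CD11c- IC groups is a library with 0 *Ramp1* counts.

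A count ratio between genes also reflects their lengths, 3022 exonic bases for *Ramp1* and 4882 for *Calcrl* in GENCODE M21. Per kilobase, the level of *Ramp1* was 22.6 ± 3.68 CPM and that of *Calcrl* 5.65 ± 1.61 CPM in untreated MHCII+CD11c+ macrophages (SD, n = 3). In untreated MHCII+CD11c- macrophages the levels per kilobase were close, at 8.54 ± 3.36 for *Ramp1* and 9.60 ± 2.19 for *Calcrl*, and in untreated LYVE1+CX3CR1+ macrophages they were 0.822 ± 0.562 and 20.3 ± 3.18. After IC, *Ramp1* and *Calcrl* stood at 8.62 ± 1.81 and 7.81 ± 3.09 CPM per kilobase in MHCII+CD11c+, at 3.36 ± 3.78 and 11.3 ± 3.15 in MHCII+CD11c- and at 0.611 ± 0.544 and 21.1 ± 3.45 in LYVE1+CX3CR1+ macrophages. By mean level, *Ramp1* was ordered untreated MHCII+CD11c+, MHCII+CD11c+ after IC, untreated MHCII+CD11c-, MHCII+CD11c- after IC, untreated LYVE1+CX3CR1+ and LYVE1+CX3CR1+ after IC, and of these neighbours only the first 2 did not overlap. *Calcrl* was ordered LYVE1+CX3CR1+ after IC and untreated, MHCII+CD11c- after IC and untreated, and MHCII+CD11c+ after IC and untreated, and neighbours differed beyond their libraries only between untreated LYVE1+CX3CR1+ and the MHCII+CD11c- group after IC.

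*Ramp2*, which pairs with CALCRL to form an adrenomedullin receptor, was seen mainly in untreated LYVE1+CX3CR1+ macrophages, with 11, 14 and 8 counts (6.80 ± 2.28 CPM). After IC these macrophages had 4, 5 and 1 counts (1.78 ± 1.15 CPM), and the 2 groups did not overlap in CPM. The gene was tested only in the fits without the filter and with DESeq2, where this difference had unadjusted p of 0.117 and 0.135. In the MHCII+ subsets all libraries were at 3 counts or fewer except 1 of MHCII+CD11c+ macrophages after IC with 4. Pooled over libraries and scaled to their TMM-adjusted sizes, *Ramp2* counts in untreated LYVE1+CX3CR1+ macrophages were 6.13 times those in MHCII+CD11c+ macrophages (33 against 6 counts, 95% counting interval 2.54 to 17.9) and 8.88 times those in MHCII+CD11c- macrophages (33 against 2 counts, interval 2.27 to 76.4), but the adjusted p in edgeR without the filter was 0.226 and 0.248. These intervals cover counting error only and not the spread between pools.

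*Ramp3*, the third accessory protein, was seen in MHCII+CD11c+ macrophages, with 11, 7 and 8 counts in untreated libraries and 4, 6 and 9 after IC (4.72 ± 0.964 and 5.43 ± 0.722 CPM). LYVE1+CX3CR1+ libraries had 0, 1 and 0 counts untreated and 0 in each library after IC, and MHCII+CD11c- libraries had 0, 3 and 4 counts untreated and 0 in each after IC. MHCII+CD11c+ libraries thus did not overlap LYVE1+CX3CR1+ libraries under either treatment. After IC *Ramp3* was at least 3.47-fold higher in MHCII+CD11c+ than in LYVE1+CX3CR1+ macrophages, counting 3 counts in each library at 0. The adjusted p of this comparison was 0.00703 in edgeR without the filter and 0.00239 with DESeq2, and in untreated mice, at 26 counts against 1 (23.3 times as many after scaling to the TMM-adjusted sizes, 95% counting interval 3.83 to 957), 0.0593 and 0.0280. The MHCII+ subsets did not overlap after IC either, at 4.70 to 6.14 CPM in MHCII+CD11c+ libraries, but a level of 2.99 to 11.3 CPM in the shallow MHCII+CD11c- libraries corresponds to 3 counts, so that the depth does not allow a difference to be stated there.

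*Adra2a*, the α2A-adrenergic receptor for noradrenaline, was highest in untreated MHCII+CD11c+ macrophages, with 32, 18 and 12 counts (11.4 ± 5.49 CPM) against 4, 0 and 1 in untreated LYVE1+CX3CR1+ (1.07 ± 1.42 CPM) and 1, 7 and 2 in untreated MHCII+CD11c- libraries (3.90 ± 4.02 CPM). The MHCII+CD11c+ libraries did not overlap those of LYVE1+CX3CR1+ macrophages, and the log2 fold change was 3.35 (SE 1.02, adjusted p = 0.0170, edgeR). The call was lost without MHCII+CD11c+ library 1 (2.96, adjusted p = 0.0740) and without LYVE1+CX3CR1+ library 2 (2.81, adjusted p = 0.0844) or 3 (3.03, adjusted p = 0.0840). Against MHCII+CD11c- macrophages the value was 1.55 (SE 0.94, adjusted p = 0.449), and MHCII+CD11c- against LYVE1+CX3CR1+ macrophages gave 1.80 (SE 1.14, adjusted p = 0.372).

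After IC, *Adra2a* counts were 4, 8 and 1 in MHCII+CD11c+, 0, 0 and 2 in MHCII+CD11c- and 1, 2 and 0 in LYVE1+CX3CR1+ libraries, the last 2 groups being at 3 counts or fewer in every library. The difference between MHCII+CD11c+ and LYVE1+CX3CR1+ macrophages was 2.74 (SE 1.17) with an adjusted p of 0.109, and the libraries overlapped. In MHCII+CD11c+ macrophages, IC against untreated gave -1.48 (SE 0.92, 95% interval -3.27 to 0.31, adjusted p = 0.674), with the highest library after IC at 6.26 CPM above the lowest untreated one at 5.76 CPM.

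*Vipr1*, the gene of the vasoactive intestinal peptide receptor VPAC1, was detected in every group and passed the threshold in no comparison in edgeR's test. LYVE1+CX3CR1+ libraries had 14, 14 and 5 counts untreated and 20, 9 and 23 after IC (6.94 ± 3.70 and 8.98 ± 3.69 CPM). MHCII+CD11c+ libraries had 11, 9 and 2 counts untreated and 2, 11 and 1 after IC, and MHCII+CD11c- libraries 4, 19 and 0 untreated and 0, 6 and 8 after IC, so that single libraries at 0 stood beside the highest CPM of the series, 23.1. All groups overlapped. Against LYVE1+CX3CR1+ macrophages, untreated MHCII+CD11c+ macrophages gave a log2 fold change of -0.72 (adjusted p = 0.688, SE 0.97) and untreated MHCII+CD11c- macrophages 0.39 (adjusted p = 0.865, SE 0.97). IC against untreated LYVE1+CX3CR1+ macrophages gave 0.38 (adjusted p = 0.972, SE 0.91). Intervals as wide as -1.51 to 2.29 for MHCII+CD11c- against LYVE1+CX3CR1+ macrophages leave differences of either sign possible.

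*Tacr1*, the receptor of substance P, was at 3 counts or fewer in 17 of 18 libraries. It had 4 counts in 1 untreated MHCII+CD11c+ library and 1 count in 1 MHCII+CD11c- library after IC, and 0 in the other 16. All 3 LYVE1+CX3CR1+ libraries of each treatment were at 0. Expression below 1.43 CPM would not have been seen reliably in any library.

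Most other receptors for nerve signals were at the same floor. Of 26 adrenergic, cholinergic, neuropeptide, dopamine and serotonin receptor genes examined beside the 7, 22 had 3 counts or fewer in every library and 10 had no count at all, among them *Vipr2*, *Tacr3*, *Npy2r* and *Chrm2*. *Calcr*, the calcitonin receptor gene, whose product pairs with RAMPs to form amylin receptors, had 1 count in 1 library. The exceptions were the adrenergic receptor *Adrb1*, *Crcp* (a CGRP receptor component that also serves in RNA polymerase III), *Adcyap1r1* (the receptor of the peptide PACAP) and *Chrm3*. *Crcp* had counts in all 18 libraries, at mean levels of 12.5 to 18.2 CPM over the 6 groups, and *Adrb1* averaged 2.37 to 6.19 CPM.

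Of these 26 genes 3 were tested, and edgeR called 0 of them in any of the 12 single comparisons, with 1 value at an unadjusted p under 0.05 and 0 called by DESeq2. *Adcyap1r1* stood at 6.02 CPM in untreated LYVE1+CX3CR1+ macrophages and 0.901 CPM in MHCII+CD11c+ macrophages without passing the threshold.

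Transcripts of the ligands were mostly at the floor as well. Of 12 ligand and neurotransmitter genes, 10 had 3 counts or fewer in every library, and *Calca*, which encodes CGRP, *Tac1*, which encodes substance P, *Adcyap1* and *Iapp* had no count in any library. *Adm*, the gene of adrenomedullin, reached 18 counts in 1 library, with group means from 0.725 to 7.18 CPM, and *Npy* reached 4 counts in 1 library. *Adm* was the only one of the 12 tested, and edgeR called it in 0 of 12 comparisons, with 2 at an unadjusted p under 0.05 and 0 called by DESeq2.

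**Figure D5:**
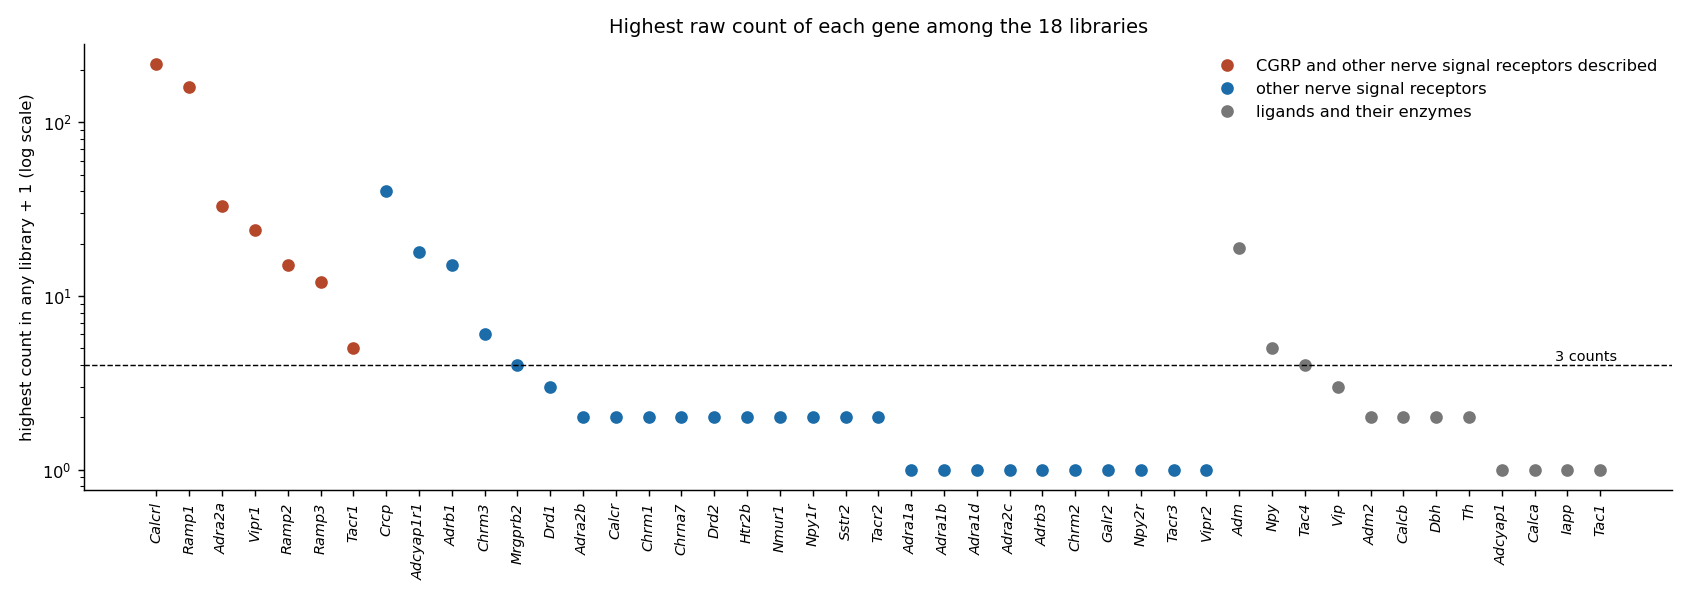
Highest raw count (plus 1, logarithmic vertical axis) that each gene reached in any of the 18 libraries, for the 7 receptor genes, 26 other receptors for nerve signals and 12 ligand or neurotransmitter genes along the horizontal axis; the dashed line marks 3 counts. *Calcrl* and *Ramp1* stood highest, at 215 and 158 counts, whereas 22 of the 26 other receptors and 10 of the 12 ligand genes did not exceed 3 counts.

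Genes that switch off or recycle such receptors were mostly present. Of 13 tested genes of receptor regulation, 4 were higher and 2 lower in untreated MHCII+CD11c+ than in LYVE1+CX3CR1+ macrophages (6 of 13 called, against 21.8% of all genes, with a median log2 fold change of 0.35 against 0.02 over all genes), and 4 were higher and 1 lower after IC (5 of 13, against 19.7% of all genes, median 0.31 against 0.04). *Adrbk2*, which encodes a kinase that marks activated receptors for arrestin, was at 0 in untreated LYVE1+CX3CR1+ libraries and at 29.5 ± 10.4 CPM in untreated MHCII+CD11c+ macrophages, at least 16.1-fold higher, and at 21.5 ± 7.99 CPM in MHCII+CD11c- macrophages, at least 11.7-fold higher (adjusted p = 9.49e-07 and 1.79e-05, edgeR). *Dpp4*, a peptidase that trims neuropeptides, was at 42.9 ± 8.44 CPM in untreated MHCII+CD11c+ and 1.52 ± 1.37 CPM in untreated LYVE1+CX3CR1+ macrophages (4.68, SE 0.63, adjusted p = 4.67e-06). *Ece1*, a peptidase known to degrade CGRP in endosomes, was higher in untreated MHCII+CD11c+ macrophages than in LYVE1+CX3CR1+ (1.33, SE 0.31, adjusted p = 0.00217) and MHCII+CD11c- macrophages (1.49, SE 0.33, adjusted p = 0.00844). *Rgs10*, a regulator that shortens G protein signals, was lower in MHCII+CD11c+ than in LYVE1+CX3CR1+ macrophages (-1.11, SE 0.18, adjusted p = 3.39e-05).

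Genes of the cyclic AMP pathway differed between subsets in both directions. Of 26 tested genes, 4 were higher and 4 lower in untreated MHCII+CD11c+ than in LYVE1+CX3CR1+ macrophages (8 of 26 called, against 21.8% of all genes, median -0.01 against 0.02). Among them, *Pde4b*, a phosphodiesterase that breaks down cyclic AMP, was higher (2.18, SE 0.22, adjusted p = 4.43e-08), as was *Prkar2a*, a regulatory subunit of protein kinase A (1.48, SE 0.24, adjusted p = 4.47e-05). *Pde3b*, another phosphodiesterase, was lower (-1.30, SE 0.28, adjusted p = 0.00105), and so was the adenylyl cyclase *Adcy3* (-1.74, SE 0.51, adjusted p = 0.0133). Between untreated MHCII+CD11c- and LYVE1+CX3CR1+ macrophages 1 gene, *Pde4b*, was higher and 1, *Pde3b*, lower. *Gnas*, which encodes the α subunit of Gs, had 202.6 to 480.3 CPM in all 18 libraries. After IC 1 of 26 genes was called in LYVE1+CX3CR1+ macrophages (against 0.464% of all genes), the protein kinase A subunit *Prkar2b*, from 94.98 ± 9.83 to 32.9 ± 6.20 CPM (-1.52, SE 0.35, adjusted p = 0.0443), and 0 of 26 in either MHCII+ subset, where 9 (MHCII+CD11c-) and 3 (MHCII+CD11c+) had an unadjusted p under 0.05 and DESeq2 called 2 and 1. Averaged over both MHCII+ subsets, 1 of 26 was called (against 4.09% of all genes), again *Prkar2b* (-1.10, SE 0.29, adjusted p = 0.0270), at 61.2 and 19.9 CPM in untreated and IC-treated MHCII+CD11c- and 44.95 and 26.3 CPM in MHCII+CD11c+ macrophages.

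Genes known to be induced through cyclic AMP and CREB, many of which also answer to other stimuli and to tissue digestion, were called higher in 7 of 15 tested in untreated MHCII+CD11c+ over LYVE1+CX3CR1+ macrophages (against 21.8% of all genes called, median log2 fold change 1.10 against 0.02) and in 8 of 15 after IC (against 19.7% of all genes, median 0.68 against 0.04), with 0 lower in both. The nuclear receptor gene *Nr4a3* was at 234 ± 51.0 against 54.0 ± 19.7 CPM in untreated mice (2.10, SE 0.29, adjusted p = 5.33e-06), and *Areg*, which encodes amphiregulin, at 40.3 ± 0.839 against 4.59 ± 3.02 CPM (3.14, SE 0.55, adjusted p = 9.32e-05). The other 8 were not called in untreated mice. *Fos* (3211 against 3419 CPM), *Fosb* (1180 against 1224) and *Nr4a1* (962 against 1001) averaged slightly less in MHCII+CD11c+ macrophages. *Crem* is in this list and in that of the pathway. In untreated MHCII+CD11c- over LYVE1+CX3CR1+ macrophages 3 of 15 were higher (against 11.5% of all genes, median 0.53 against 0.02), led by *Sik1*, a kinase of the CREB feedback loop (1.003, SE 0.17, adjusted p = 0.000236). Between the MHCII+ subsets 3 of 15 were higher in untreated MHCII+CD11c+ macrophages (against 3.49% of all genes, median 0.10 against -0.01) and 0 of 15 were called after IC (against 2.85% of all genes), with 3 of 15 at an unadjusted p under 0.05 and 0 called by DESeq2. With IC, edgeR and DESeq2 called 0 of 15 in each single subset, and 3 (LYVE1+CX3CR1+), 5 (MHCII+CD11c-) and 1 (MHCII+CD11c+) had an unadjusted p under 0.05, while averaged over both MHCII+ subsets 2 of 15 were higher (against 4.09% of all genes).

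Across the 18 libraries the levels of *Ramp1* were most like those of *Irf4* (Pearson r = 0.94 of log2 CPM), *Rps23* (0.93), *Ryr1* (0.93), *Gbp3* (0.92) and *Rpl26* (0.92) among 8822 genes whose log2 CPM averaged 3 or more. *Irf4*, a transcription factor gene, had mean levels of 62.9 and 39.9 CPM in untreated and IC-treated LYVE1+CX3CR1+, 131 and 78.9 in MHCII+CD11c- and 193 and 135 in MHCII+CD11c+ macrophages. *Ryr1*, a calcium release channel, ran from 0.537 CPM in LYVE1+CX3CR1+ macrophages after IC to 85.3 CPM in untreated MHCII+CD11c+ macrophages. The genes most like *Calcrl* were *Akr1a1* (0.92), *Abhd12* (0.92), *Cbr2* (0.91), *Gdpd5* (0.91) and *Sesn1* (0.91), and *Cbr2*, a carbonyl reductase, was at 1156 CPM in untreated LYVE1+CX3CR1+ and 279 CPM in untreated MHCII+CD11c+ macrophages. *Adra2a* was most like *Prcp* (0.86), *Ptafr* (0.84) and *Eif3k* (0.83), and *Vipr1* most like *Sertad2* (0.79), *Crtap* (0.79) and *Mlycd* (0.78). These values describe libraries that share their group and differ in depth, and the best of 8822 genes is high by selection.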

How the data were processed

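RNA of sorted synovial macrophages was measured in 18 libraries. Per the labels and the study's methods, the authors trimmed reads with Trim Galore, checked them with FastQC, aligned them to mm10 (GRCm38) with HISAT2 and counted them with featureCounts, and they deposited raw counts per gene symbol with no normalization. Versions, annotation and strand setting are not given in the sources used here, so counts of overlapping and antisense genes are uncertain. A combined table was not used.

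From the deposited counts, TMM factors and log2 CPM (prior count 2) came from edgeR 4.0.16 (R 4.3.3). filterByExpr (minimum count 10, minimum total count 15) kept 10550 genes. edgeR's quasi-likelihood test used the 6 groups of 18 libraries in a single fit, and p-values were adjusted by Benjamini-Hochberg over all genes of a comparison (threshold 0.05). The SE was the log2 fold change divided by the square root of F, and 95% intervals are normal. The study's methods name DESeq2 and sva, which were run as alternatives (DESeq2 1.42.0, sva 3.50.0 with 1 surrogate variable). Others were DESeq2's size factors, no filter, only the libraries compared, a replicate block and leaving out each library. The intervals of fold changes include the spread between pools, whereas the intervals of pooled count ratios and the floors cover counting error only, since PCR reads are not independent molecules. Scripts were first tested on simulated data with known fold changes. The exact permutation test of the *Ramp1* to *Calcrl* ratio was two-sided and kept treatments apart.

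No 2 libraries of a group agreed within sampling noise (smallest chi-square per gene 3.42). Promoters of 6 of the 7 genes were found in the RefSeq table. The genes and lists were chosen with earlier results of these data known. Genes named beside the 7 are the list genes past the threshold, at most 4 per list and comparison by p, markers by level, and the 5 genes most like each tested receptor gene, of which the first 3 are given for *Adra2a* and *Vipr1*. *Gnas*, *Fos*, *Fosb*, *Nr4a1*, *Crem* and receptors and ligands named by their counts were named after their values were seen.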

Additional observations from a re-analysis of the deposited data

How the results depend on the processing

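Of the counts of called receptor genes and the ratios, 225 values under alternatives stayed within the limits set for a change, 23 counts moved and 1 ratio missed the threshold. Of the single log2 fold changes, 401 kept their sign and side of the threshold, 17 fell short of it, 11 passed it and 17 turned sign. The number of receptor genes called changed from 0 to 1 for MHCII+CD11c+ against MHCII+CD11c- macrophages in untreated mice with no filter, with only the libraries compared and with DESeq2, and for IC in MHCII+CD11c+ macrophages with no filter and only the libraries compared. For MHCII+CD11c- against LYVE1+CX3CR1+ macrophages after IC it changed from 1 to 2 with no filter and with DESeq2, to 0 with only the libraries compared, and ran from 0 to 2 when 1 library was left out. Leaving out 1 library gave 1 to 2 called genes for the same pair untreated, 0 to 1 for IC averaged over the MHCII+ subsets and 1 to 2 for the MHCII+ subsets averaged over treatments. The cause was not tested. With both shallowest libraries left out, an alternative chosen after seeing the data, the ratio between the MHCII+ subsets was 1.63 (adjusted p = 0.05).

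Most values that turned sign were near 0. *Ramp1* with IC in LYVE1+CX3CR1+ macrophages gave 0.17 and 0.32 with 1 library left out (range -0.89 to 0.32), and its IC response between the MHCII+ subsets gave -0.35, -0.23, -0.01 and 0.00 (range -0.35 to 0.80). *Calcrl* gave 0.03 between the MHCII+ subsets after IC and -0.31 with IC in MHCII+CD11c- macrophages with both shallowest libraries left out, -0.14 there with the surrogate variable and -0.01 without 1 library (range -0.01 to 0.43), and -0.06 and -0.01 with IC in LYVE1+CX3CR1+ macrophages (range -0.06 to 0.21). *Vipr1* gave -0.17 (surrogate variable), -0.09 (replicate block), -1.59 and -0.01 (1 library left out, range -1.59 to 0.99) for untreated MHCII+CD11c- against LYVE1+CX3CR1+ macrophages, and -0.01 with IC in LYVE1+CX3CR1+ macrophages (range -0.01 to 0.69).

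The replicate block, which treats libraries with the same number as paired, changed no call and turned no sign but that of *Vipr1* above, and it left 3, 2, 2 and 1 receptor genes called in the subset comparisons with LYVE1+CX3CR1+ macrophages. The labels do not say that a number marks a pool. Deviations of same-numbered libraries of different subsets correlated at -0.07 to 0.18 (median 0.05), and in 27 of 36 cases a library correlated best with its own number. DESeq2 gave no adjusted p for 36 of 98 receptor gene values, which were left out. Depth limits *Ramp2*, *Ramp3*, *Tacr1* and *Adra2a* most.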
